A study of Mus musculus with 4 samples.

Results

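The genes of fat breakdown Pnpla2, Lipe, Mgll, Abhd5, G0s2 and Pnpla3 were followed through the TLE3-bound regions of cultured mouse fat cells. A region was given to one of the 6 genes where the deposited tables named it as the nearest gene and placed the region's centre within 50 kb of its start site. By this rule 16 of 69599 regions belonged to 5 of the genes. Mgll had 8, Abhd5 had 4, Lipe had 2, and Pnpla2 and G0s2 had 1 each, while Pnpla3 had 0. One more Mgll region, 52.0 kb from the start site, lay just outside the distance with a signal of 13.8 in BAT, 22.1 in eWAT, 15.2 in iWAT and 1.30 in the input, and is not counted.

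Each group was 1 library from primary adipocytes, made in culture from the stromal-vascular cells of male NMRI mice aged 4 to 5 weeks. The groups were TLE3 ChIP in brown fat cells (BAT, from the interscapular, cervical and axillary pads together), TLE3 ChIP in epididymal white fat cells (eWAT), TLE3 ChIP in inguinal white fat cells (iWAT), and an input library, with no antibody, from iWAT cells. All cultures shared 30 nM insulin and 1 µM rosiglitazone, an agonist of the fat cell receptor PPARγ, and were taken on day 8. All were fixed with 2 mM of the crosslinker DSG for 15 min and 1% formaldehyde for 30 min. Each pool came from 10 to 15 mice, and the cutoff for use was over 50% differentiated cells, while the share of other cells is not stated. With 1 library a depot there is no replicate error, and depot and library cannot be told apart. Intervals below are 95% Clopper-Pearson intervals that cover counting error only.

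Lipolysis takes stored triglyceride apart in steps. Adipose triglyceride lipase, the product of Pnpla2, removes the first fatty acid, hormone-sensitive lipase (Lipe) acts on the diglyceride that is left, and monoglyceride lipase (Mgll) frees the last fatty acid and glycerol. Abhd5 (also CGI-58) encodes the coactivator of adipose triglyceride lipase, and G0s2 encodes its inhibitor. Pnpla3 encodes a relative of that lipase on the lipid droplet. TLE3 is a corepressor of the Groucho family that reaches DNA through transcription factors. Binding near a gene is not a measure of its expression, which was not measured here.

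TLE3 signal is given throughout in scaled reads, the reads in a 230 bp region put on a common total per library. Depth differed widely, since 1 read was worth 2.77 scaled reads in BAT, 0.883 in eWAT, 0.526 in iWAT and 0.651 in the input. A BAT value of 22.1 thus rests on 8 reads. The regions of the whole set took up 10.1% of BAT reads, 26.2% of eWAT reads, 26.3% of iWAT reads and 1.13% of input reads, if the libraries were scaled to 10000000 reads. Of genes that mark cell types, all 8 adipocyte genes examined and 5 of 6 brown adipocyte genes had a region, and so did 12 of 12 stromal, 5 of 5 mesothelial, 4 of 6 macrophage and 5 of 5 endothelial ones.

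TLE3 lay near the lipase genes in all 3 depots. Pnpla2 had a region at chr7:148638019-148638249 of mm9, 2.95 kb upstream of its start site and annotated as the transcript end of its neighbour Rplp2. It had a signal of 22.1 in BAT, 77.7 in eWAT and 52.6 in iWAT, against 1.95 in the input. All 3 TLE3 libraries stood above the input, and the region was listed in each depot. The counts were 8, 88 and 100 reads, against 3 in the input.

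Lipe had a pair of regions close to its start site. The one annotated as promoter, chr7:26175461-26175691, was centred 0.445 kb upstream and had a signal of 27.7 in BAT, 85.7 in eWAT and 80.9 in iWAT, against 6.51 in the input. The white fat libraries had similar heights there. The other, chr7:26176950-26177180, lay 1.93 kb upstream, inside intron 1 of a longer Lipe transcript, with 30.4 in BAT, 45.0 in eWAT and 29.4 in iWAT, against 1.30 in the input. At this second region BAT and iWAT were nearly equal on the deposited scale. No other member region lay within 1 kb of a start site.

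The bases next to the promoter region are shown because this was the TLE3 region nearest to any of the 6 start sites. Its near edge was 330 bases upstream of the tables' start site. The RefSeq promoter window covers 250 bases before to 50 after a start, so 80 bases lie between them if RefSeq and the tables share that start. RefSeq gives 2 Lipe starts that lie 5875 bases apart, and the window printed is that of the downstream start on the minus strand, GRCm38.p6 chr7:25390063-25390362. The region's own sequence is not shown, as no mm9 genome was used here. The Abhd5 window, GRCm38.p6 chr9:122351366-122351665 on the plus strand, is set beside it because a TLE3 region that differed between depots lay 2.27 kb upstream of that start. Capitals mark matches to any of 6 motifs, of which the Lipe window held 0 and the Abhd5 window 1.
Lipe: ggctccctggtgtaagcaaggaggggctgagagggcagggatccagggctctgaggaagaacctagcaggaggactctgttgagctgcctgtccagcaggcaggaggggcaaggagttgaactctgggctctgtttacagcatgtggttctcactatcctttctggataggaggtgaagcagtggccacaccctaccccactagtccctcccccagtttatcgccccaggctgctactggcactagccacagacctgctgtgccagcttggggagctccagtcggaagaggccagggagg
Abhd5: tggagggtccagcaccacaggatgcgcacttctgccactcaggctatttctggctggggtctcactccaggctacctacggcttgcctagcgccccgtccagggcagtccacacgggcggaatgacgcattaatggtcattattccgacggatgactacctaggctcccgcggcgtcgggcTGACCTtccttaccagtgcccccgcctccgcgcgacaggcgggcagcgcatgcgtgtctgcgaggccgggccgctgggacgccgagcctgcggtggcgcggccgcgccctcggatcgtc

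The motifs were searched on both strands in all 8 RefSeq windows of the 6 genes. The nuclear receptor hexamer AGGTCA matched in Abhd5, where the window reads its reverse complement, and in 0 of the other windows, while 16.3% of the 32851 mouse windows held it. The direct repeat of that hexamer with 1 base between, AGGTCANAGGTCA, had 0 matches in the 8 windows and stood in 0.0396% of all. The C/EBP letters TTGCNNAA also had 0 matches, against 10.8% of all windows. The EBF letters CCCNNGGG had 2 overlapping matches in 1 of the 2 Mgll windows and stood in 13.7% of all. The E-box CACGTG matched in that same Mgll window and in the upstream Lipe window, against 7.15% of all. The TCF letters CTTTGA matched in the Pnpla3 window and in 16.0% of all. None of the 16 TLE3 regions overlapped one of these windows around the deposited start sites, so the matches describe the promoters and not the bound regions.

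Mgll carried a chain of 8 regions, all in intron 2, spread over 34.3 kb. The gaps between neighbours ran between 1.03 and 9.28 kb. The strongest, chr6:88696382-88696612, lay 21.8 kb downstream of the start site with a signal of 124 in BAT, 269 in eWAT and 219.7 in iWAT, against 11.1 in the input. It ranked above 99.3% of all regions in BAT, 99.9% in eWAT and 99.9% in iWAT. Its input value was also high, above 99.9% of regions. This region gave 39.8% of the Mgll sum in BAT, 35.0% in eWAT and 35.6% in iWAT.

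Other Mgll regions did not follow it in step. The region 7.51 kb downstream, chr6:88682094-88682324, had a signal of 52.5 in BAT, 67.1 in eWAT and 39.9 in iWAT, against 1.95 in the input. Here BAT was above iWAT. The next one, 12.5 kb downstream at chr6:88687099-88687329, had 19.4 in BAT, 159.8 in eWAT and 69.4 in iWAT, against 5.86 in the input. It was the second strongest Mgll region in eWAT and among the weakest in BAT. The region 29.1 kb downstream, chr6:88703701-88703931, had 8.30 in BAT, 25.6 in eWAT and 75.2 in iWAT, against 5.21 in the input. It was the second strongest in iWAT and the weakest in the other libraries. Only 1.03 kb further on, chr6:88704732-88704962 had 41.5 in BAT, 65.4 in eWAT and 56.2 in iWAT, against 3.25 in the input. The region nearest the start, 2.43 kb downstream at chr6:88677016-88677246, had 27.7, 70.6 and 50.5 in BAT, eWAT and iWAT, against 5.86 in the input. The remaining regions, 32.4 and 36.7 kb downstream, both had 19.4 in BAT, with 68.0 and 44.2 in eWAT and 62.0 and 44.7 in iWAT, against 5.86 and 3.90 in the input.

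**Figure D1:**
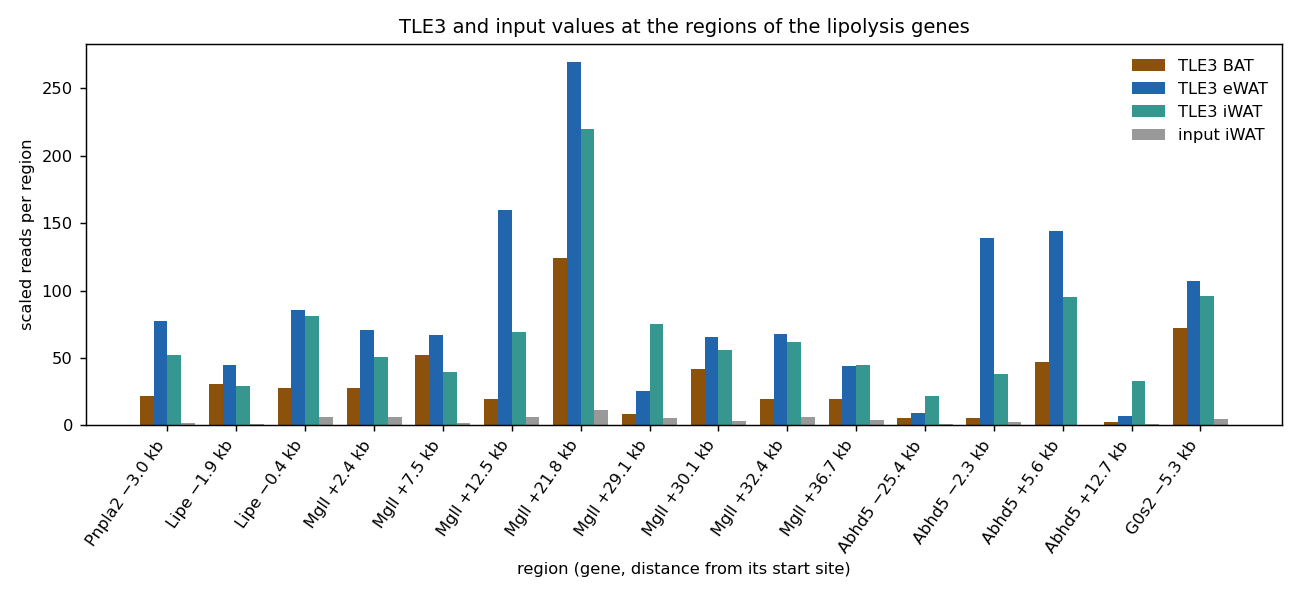
Scaled reads (y axis) at the 16 regions of the lipolysis genes (x axis, gene and distance from its start site, minus for upstream) in the TLE3 BAT, eWAT and iWAT libraries and the iWAT input, 1 library each, so bars have no error. The Mgll region at 21.8 kb is the highest in all 3 TLE3 libraries, with 124, 269 and 219.7, and Pnpla3 has no region to plot.

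Abhd5, the lipase coactivator gene, held both the highest and the lowest eWAT over iWAT ratio of the 16 regions. In intron 1, 5.63 kb downstream of the start, chr9:122266246-122266476 had a signal of 47.0 in BAT, 144 in eWAT and 95.1 in iWAT, against 0 in the input. It was listed in all 3 depots. The region 2.27 kb upstream, chr9:122258351-122258581, had 5.53 in BAT, 138.6 in eWAT and 37.8 in iWAT, against 2.60 in the input. In eWAT it nearly equalled the intronic region, while in BAT it held 2 reads, fewer than the 3 that a count of 0 would still allow. A weaker pair ran the other way and was listed in iWAT alone. One, 12.7 kb downstream at chr9:122273310-122273540, had 2.77 in BAT, 7.06 in eWAT and 33.1 in iWAT, against 1.30 in the input. The other, 25.4 kb upstream at chr9:122235193-122235423, had 5.53, 8.83 and 21.6 in BAT, eWAT and iWAT, against 0.65 in the input. The strongest region gave 77.3% of the Abhd5 sum in BAT, against 48.2% in eWAT and 50.7% in iWAT.

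**Figure D2:**
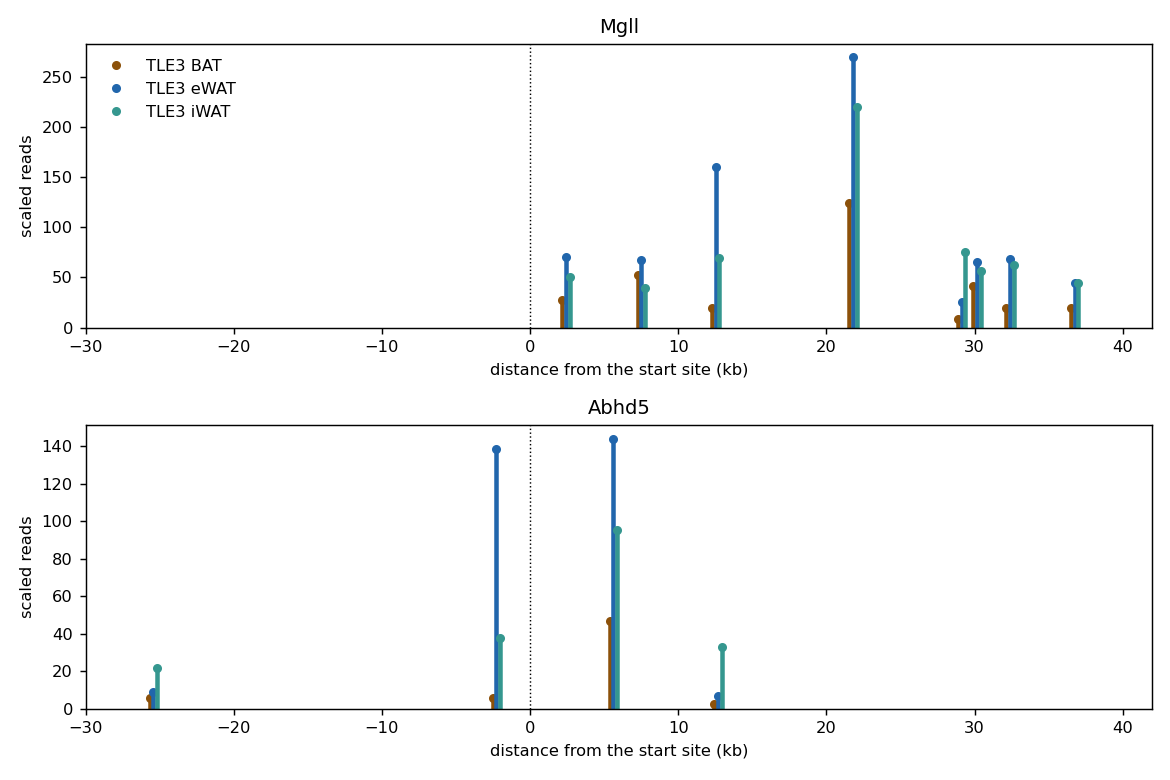
Scaled reads (y axes) at the regions of Mgll and Abhd5 against distance from the start site in kb (x axes, minus for upstream, dotted line at the start), 1 stem per TLE3 library, drawn slightly apart so that all can be seen. At Abhd5 the eWAT stem 2.27 kb upstream reaches 138.6, where BAT has 5.53 and iWAT 37.8, while at Mgll the iWAT stem 29.1 kb downstream, at 75.2, stands above eWAT at 25.6 and BAT at 8.30.

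G0s2, the inhibitor gene, had its region 5.35 kb upstream at chr1:195104613-195104843, annotated as intergenic. It had a signal of 71.9 in BAT, 106.9 in eWAT and 96.2 in iWAT, against 4.56 in the input. The TLE3 libraries all stood far above the input, and the region was listed in each depot. It ranked above 97.6% of all regions in BAT, 94.6% in eWAT and 93.2% in iWAT.

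Pnpla3 was given no region. In RefSeq order its neighbours are Sult4a1 and Pnpla5 on one side and Samm50 and Parvb on the other. Within 50 kb of their own starts, Sult4a1 and Samm50 had 0 regions as well, and Pnpla5 and Parvb had 2 each. The last Pnpla5 region and the next Parvb region lay 72.9 kb apart on mm9 chromosome 15 with 0 regions between them. The Pnpla5 region at that edge, chr15:83970168-83970398, had a signal of 47.0 in BAT, 145.7 in eWAT and 96.2 in iWAT, against 1.95 in the input. Its distance from the Pnpla3 start site in mm9 is not given in the tables.

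Between eWAT and iWAT, the white fat depots, regions of Abhd5 and Mgll differed. A ratio is given in log2 after subtracting the median over the strongest 25% of all regions, and it was called where it reached 2-fold and its whole interval lay on 1 side of 0. Abhd5 was higher in eWAT 2.27 kb upstream, with a log2 ratio of 1.74 (1.33 to 2.16) over iWAT. Its regions listed in iWAT alone had ratios of −2.36 (−3.63 to −1.29) at 12.7 kb downstream and −1.42 (−2.58 to −0.40) at 25.4 kb upstream, and both calls were lost where a mean of at least 30 over the TLE3 libraries was required, which left 3 of the 5 calls. Mgll was higher in eWAT 12.5 kb downstream, at 1.07 (0.74 to 1.41), and stood at −1.69 (−2.31 to −1.10) 29.1 kb downstream, in a region also listed in iWAT alone. These 3 regions entered the set only through the library where they were high, so their lower values in eWAT were set by that choice and are a description. Both regions higher in eWAT were listed in eWAT and in iWAT. Thus 2 of the 16 regions were called higher in eWAT, beside 16.4% of all regions, and 3 lower, beside 24.1%. These 5 calls held under all 4 scalings tried, which set to 0 the median of the strongest regions, of the regions listed in all 3 depots, or of all regions, or left the authors' scale as it was. The member shares, 12.5% and 18.8%, were not above those of all regions.

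In the same comparison 3 of the 4 macrophage genes with a region were called higher in eWAT than in iWAT, beside 12.2% of all genes. All 4 had a region listed in eWAT, but 1 in iWAT and 0 in BAT. The called ones, Adgre1, Itgam and Lyz2, summed to 7.36, 9.99 and 7.36 in iWAT, under the 15 found in each list. They entered the set through eWAT alone, so their lower values in iWAT and BAT were set by that choice and are a description. Over the 4 genes the summed values lay between 0 and 13.8 in BAT, 38.9 and 70.6 in eWAT, and 7.36 and 32.6 in iWAT. Adgre1 and Lyz2, which mark macrophages, were at 0 in BAT. With 3 reads in place of 0 neither could reach 2-fold below eWAT, so the lack of a call there shows nothing. Itgam, with 5.53 in BAT and 70.6 in eWAT, was called lower in BAT. The list holds Adgre1 a second time under its older symbol Emr1, which had no region. Among stromal genes, 3 of 12 were called lower in eWAT and 1 higher, beside 12.2% of all genes each way. Of the 5 mesothelial genes 1 was called higher in eWAT and 0 lower. The part of such cells in the eWAT values of Abhd5 and Mgll was not tested.

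Summed over its regions, no member reached 2-fold between eWAT and iWAT. The Abhd5 sum was 298 in eWAT against 187.6 in iWAT, for a ratio of 0.54 (0.32 to 0.76). Pnpla2 stood at 0.43 (0.00 to 0.86) and Mgll, with 770.0 in eWAT and 617 in iWAT, at 0.19 (0.06 to 0.31). Lipe, with 130.7 in eWAT and 110.4 in iWAT, stood at 0.11 (−0.20 to 0.42), and G0s2 at 0.02 (−0.32 to 0.36). At gene level 0 of the 5 were called in either direction, where 12.2% of all 13381 genes were called higher and 12.2% lower. The intervals of Lipe and G0s2 include 0, which does not show that the depots were alike.

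**Figure D3:**
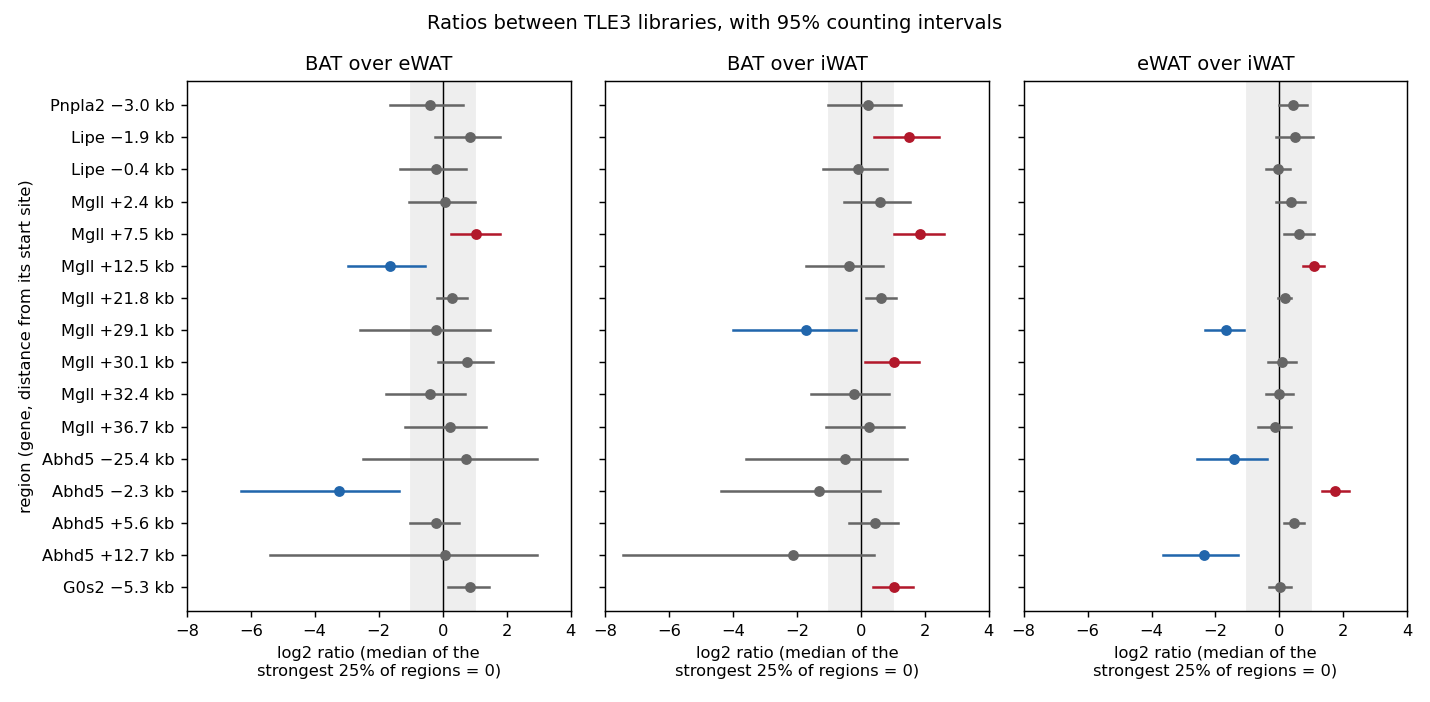
Log2 ratios (x axes) of the 16 member regions (y axis, gene and distance from the start site) for BAT over eWAT, BAT over iWAT and eWAT over iWAT, with 95% counting intervals as lines. Red points were called higher and blue ones lower in the library named first, the grey band marks less than 2-fold, and the lowest point, −3.24, is the Abhd5 region 2.27 kb upstream in BAT over eWAT.

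BAT differed from eWAT at 1 region of Abhd5 and 2 of Mgll. The Abhd5 region 2.27 kb upstream was lower in BAT, at −3.24 (−6.29 to −1.36), and so was the Mgll region 12.5 kb downstream, at −1.63 (−2.97 to −0.56). Both calls held under all 4 scalings, and both regions were listed in eWAT and iWAT but not in BAT, so they entered the set through the libraries where they were higher. The Mgll region 7.51 kb downstream was higher in BAT, at 1.06 (0.25 to 1.80), but held under 2 of 4 scalings and turned to −0.35 on the authors' own scale. In all, 1 of 16 regions was called higher, beside 11.2% of all regions, and 2 lower, beside 6.68%, whereas on the authors' scale 0 were higher and 9 lower. In sums, 0 of 5 genes were called, beside 9.73% of genes called higher and 12.3% lower. The lowest sum was that of Abhd5, with a signal of 60.8 in BAT and 298 in eWAT (−0.88, −1.58 to −0.26), and the highest that of G0s2, with 71.9 in BAT and 106.9 in eWAT (0.84, 0.17 to 1.46).

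Against iWAT, 4 regions were called higher in BAT, beside 11.8% of all regions, and 1 lower, beside 6.93%, whereas on the authors' scale 0 were higher and 10 lower. The Mgll region 7.51 kb downstream was higher, at 1.85 (1.04 to 2.59), as was the one 30.1 kb downstream, at 1.02 (0.13 to 1.80). The Lipe region 1.93 kb upstream was higher at 1.503 (0.42 to 2.45) and the G0s2 region at 1.04 (0.38 to 1.63). The Mgll region 29.1 kb downstream stood at −1.72 (−4.02 to −0.15), but it was listed in iWAT alone, so its lower value in BAT was set by how it entered the set. Both calls of Mgll at 7.51 and 29.1 kb held under 3 of the 4 scalings and the other 3 calls under 2, and on the authors' scale the ratios of G0s2 and of Mgll at 30.1 kb turned to −0.42 and −0.44. G0s2 was also the 1 of 5 genes called in sums, higher in BAT, beside 12.5% of genes called higher and 9.40% called lower.

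The remaining sums were not called in BAT. Mgll, the largest, stood at 0.11 (−0.18 to 0.40) over eWAT and 0.47 (0.18 to 0.75) over iWAT, Lipe at 0.24 (−0.49 to 0.91) and 0.53 (−0.19 to 1.18), and Pnpla2 at −0.40 (−1.66 to 0.64) and 0.21 (−1.04 to 1.24). Abhd5 stood at −0.17 (−0.86 to 0.45) over iWAT. Over the 16 regions the median ratio was 0.06 for BAT over eWAT, 0.23 for BAT over iWAT and 0.12 for eWAT over iWAT, against 0.01, 0.15 and 0.08 over all regions within 50 kb of a start.

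The BAT library had both fewer reads and a smaller share of them in regions, and its ratios moved with the scale. The median subtracted was −1.41 for BAT over eWAT, −1.46 for BAT over iWAT and 0.13 for eWAT over iWAT. With the regions listed in all 3 depots as the scale, the BAT medians were −0.75 over eWAT and −0.66 over iWAT.

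Differences between regions of the same gene are not moved by the scale. In Mgll the BAT over eWAT ratio at 7.51 kb exceeded that at 12.5 kb by 2.69 in log2, and the BAT over iWAT ratio at 7.51 kb exceeded that at 29.1 kb by 3.57. The eWAT over iWAT ratio at 12.5 kb exceeded that at 29.1 kb by 2.76. In each of these pairs the intervals lay apart, though the pairs are the highest and lowest ratio of the gene, picked from these values, so the gaps are a description. At Abhd5 the eWAT over iWAT ratio at 2.27 kb upstream exceeded that at 12.7 kb downstream by 4.10, again with intervals apart. The widest Abhd5 gaps in the other comparisons, 3.97 in BAT against eWAT and 2.56 in BAT against iWAT, had overlapping intervals. The ends at 29.1 kb in Mgll and 12.7 kb in Abhd5 were listed in iWAT alone. The Lipe regions had overlapping intervals in all 3 comparisons.

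Set against the input, the member regions had shares of 43.8%, 87.5% and 93.8% at 10-fold or more in BAT, eWAT and iWAT. At least 10 times the input was reached by 7 of the 16 in BAT, beside 42.5% of all regions, by 14 in eWAT, beside 84.1%, and by 15 in iWAT, beside 83.4%. Each region had to reach that fold in some library to be listed, so these counts nearly restate how many were listed and show nothing about the genes. The iWAT library alone has an input of its own depot. There the fold was 26.9 (8.95 to 132.7) at Pnpla2, 12.4 (6.58 to 26.5) at the Lipe promoter region, 19.9 (12.3 to 34.4) at the strongest Mgll region and 21.1 (10.0 to 53.2) at G0s2. At the Abhd5 region 5.63 kb downstream, where the input had 0 reads, the fold set against 3 input reads was 24.1 in BAT, 73.7 in eWAT and 48.7 in iWAT, and the lower 95% limits were 17.5, 59.3 and 39.2. In the input itself the member regions had a median of 3.58 scaled reads, against 1.30 over all regions, and the 8 Mgll regions had a median of 5.54.

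A limit set by the input also shows in which regions were listed. In each deposited list the signal was at least 15 and at least 10 times the input, limits read from the values and stated in no label. Of the members, 7 were listed in BAT, beside 21.6% of all regions and 22.0% of those within 50 kb of a start, 13 in eWAT, beside 73.3% and 76.5%, and 15 in iWAT, beside 72.5% and 69.8%. All 7 BAT ones were listed in all 3 depots, 43.8% of the 16 regions, against 15.9% of all regions. Of the members 4 were in 1 list alone, 25% against 48.4%. Of the 9 not listed in BAT, 5 had at least 15 scaled reads and missed only the limit set by the input, and they were the Lipe promoter region and 4 Mgll regions. The Mgll region 2.43 kb downstream missed the iWAT list in the same way, with a signal of 50.5 in iWAT and 5.86 in the input, and was listed in eWAT alone.

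The distance rule fixes the members near start sites, so they are set beside the 39602 regions that met the same 50 kb limit. Their median distance was 10.0 kb, against 15.5 kb, and 8 of 16 lay within 10 kb, against 36.1%. Introns held 11 of 16, against 51.3%, of which 8 were those of Mgll. Their median signal was 24.9 in BAT, 69.3 in eWAT and 54.4 in iWAT, against 8.30, 28.3 and 26.8 for the regions under the same limit. As 8 of the 16 were those of Mgll, these medians lean on 1 gene. The 4 Abhd5 regions had a median of 5.53 in BAT, under the 8.30, while those of the other genes lay above it.

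Among the 13381 genes with a region, the members were far apart. Mgll, with a signal of 312 in BAT, 770.0 in eWAT and 617 in iWAT, had a mean above 99.5% of genes, and its 8 regions compare with a median of 2. Abhd5 lay above 86.5% of genes, Lipe above 69.9%, G0s2 above 67.3% and Pnpla2 above 48.3%. By library, G0s2 stood higher among genes in BAT, at 81.0%, than in eWAT, at 63.5%, and iWAT, at 63.0%. Abhd5 stood at 76.9% in BAT, 91.4% in eWAT and 82.3% in iWAT.

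**Figure D4:**
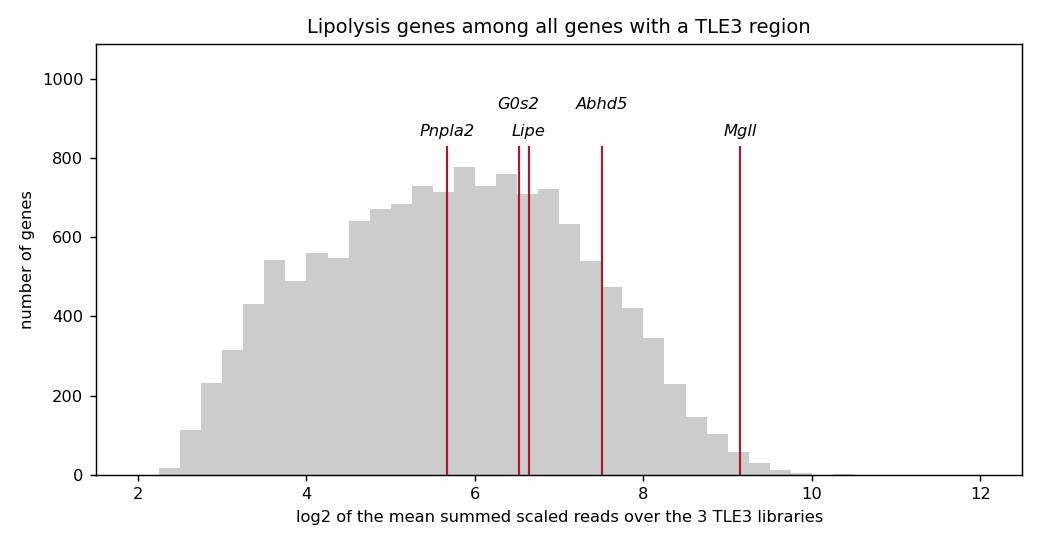
Number of genes (y axis) by the log2 of their mean summed scaled reads over the 3 TLE3 libraries (x axis), for all 13381 genes with a region within 50 kb, with red lines at the 5 lipolysis genes that had one. Pnpla2 lies near the middle, above 48.3% of genes, and Mgll far to the right, above 99.5%.

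The genes nearest to each member in log2(sum + 1) over the 3 TLE3 libraries were Scoc and Taldo1 for Pnpla2, at Euclidean distances of 0.022 and 0.079. For Lipe they were Pfkp (0.069) and Emc2 (0.084), and for Mgll Col6a2 (0.094) and Trib1 (0.13). For Abhd5 they were Sphk1 (0.034) and 4930429F11Rik (0.094), and for G0s2 Zc3h4 (0.079) and Fam175a (0.084). With only 3 libraries, such likeness is a description of levels.

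Around the start sites of the 5 genes, 19 further regions within 50 kb were given to other genes that began nearer. G0s2 had 10 such regions, 8 of them given to Hsd11b1, whose product activates glucocorticoids, and 2 to Lamb3. Pnpla2, Lipe and Abhd5 had 3 each and Mgll had 0. The strongest near Pnpla2, given to Tspan4 and 21.5 kb downstream of the Pnpla2 start, had a signal of 88.5 in BAT, 98.0 in eWAT and 71.0 in iWAT, against 4.56 in the input, and so exceeded the region given to Pnpla2 in each TLE3 library. One region in the last intron of Abhd5, 27.5 kb from its start, was given to A730085K08Rik and had 19.4 in BAT, 14.1 in eWAT and 32.6 in iWAT, against 1.30 in the input. With these regions added, an alternative chosen after seeing the data, the lists held 15 regions in BAT, 28 in eWAT and 27 in iWAT.

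Genes that act on lipolysis from outside the 6 were taken from 4 lists, in all 65 genes of which 54 had a region. Between BAT and eWAT, 7 of the 54 were called higher in BAT and 1 lower, and between BAT and iWAT 9 were called higher and 1 lower. Between eWAT and iWAT, 1 was called higher in eWAT and 3 lower. As shares these were 13.0% higher and 1.85% lower in BAT against eWAT (9.73% and 12.3% of all genes), 16.7% and 1.85% in BAT against iWAT (12.5% and 9.40%), and 1.85% and 5.56% in eWAT against iWAT (12.2% each way). The BAT calls moved with the scale: on the authors' scale 0 of the 54 were higher in BAT than in eWAT and 38 lower, and 0 were higher than in iWAT and 26 lower. With regions of all 3 lists as the scale, 2 were higher and 15 lower over eWAT, and 0 higher and 6 lower over iWAT. The calls of eWAT over iWAT held under all 5 scalings, the median gene among them, except that of Npr1, which held under 4. The BAT directions below are therefore relative to the strongest regions.

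In hormonal control, 27 of 31 genes had a region, and their median ratio was 0.17 for BAT over eWAT, 0.50 for BAT over iWAT and 0.14 for eWAT over iWAT. Over the 9100 genes with a mean sum of at least 30 these medians were −0.12, −0.03 and 0.03. Adrb1, a β-adrenergic receptor gene, had a sum of 259.9 in BAT, 336 in eWAT and 432.5 in iWAT and was higher in BAT than in eWAT. Adcy3, an adenylyl cyclase that makes cAMP, was higher in BAT in both comparisons, with 210.2 in BAT, 190.7 in eWAT and 203 in iWAT. Of the subunits of protein kinase A, which phosphorylates hormone-sensitive lipase, Prkacb had 19.4, 15.9 and 46.8 and was higher in BAT than in eWAT and lower in eWAT than in iWAT, Prkar2b had 232, 549 and 450.9, and Prkar1a had 0 reads in BAT with 37.1 in eWAT and 55.2 in iWAT, and with 3 reads in place of 0 it was lower in BAT than in iWAT, at −1.28. Pde4b, which degrades cAMP, had 307, 627 and 482. On the insulin side, which restrains lipolysis, Insr had 246, 419 and 539, while Irs2 (102, 219.9 and 114.6) and Akt2 (105, 217 and 133) were higher in BAT than in iWAT. Ptger3, a prostaglandin receptor, had 27.7, 68.0 and 138.7. Npr1, a natriuretic peptide receptor, had 5.53, 9.71 and 18.9. Both were lower in eWAT than in iWAT. Npr1 had 1 region, under 15 in BAT and eWAT, so it was listed in iWAT alone. Prkar1a also had 1 region, with 0 in BAT, so it entered the set through white fat. Prkacb had 2 regions that together held 15.9 in eWAT, so at most 1 of them could be listed there. The lower values of Npr1 in eWAT and of Prkar1a in BAT were thus set by that choice and are a description. The same holds, at least in part, for the low eWAT value of Prkacb and so for both of its calls.

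Among droplet proteins, 7 of 12 genes had a region, with medians of 0.08, 0.61 and 0.34 for the same 3 ratios. Cidea and Cidec, which promote droplet fusion, were higher in BAT in both comparisons, with sums of 99.6 and 127 in BAT, 72.4 and 166 in eWAT, and 96.2 and 111 in iWAT. Plin2, Plin4 and Bscl2, all of the droplet or its formation, had 74.7, 105 and 102 in BAT, 188, 176.6 and 277 in eWAT, and 151, 151 and 184 in iWAT, with 0 calls. Of further lipases and hydrolases 13 of 15 had a region, with medians of −0.22, 0.15 and 0.35. Ddhd1, a phospholipase, was lower in BAT than in eWAT, with 69.1 in BAT and 369 in eWAT, and Ces1f, a carboxylesterase, was higher than iWAT in BAT and in eWAT, with 47.0 in BAT, 126 in eWAT and 53.6 in iWAT. Lpl and Lipg, lipases of lipoproteins, had 265 and 282 in BAT, 679 and 461 in eWAT, and 511 and 414 in iWAT.

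All 7 genes of product export and glycerol handling had a region, with medians of 0.27, 0.82 and 0.20. Aqp7 and Aqp3, channels that pass glycerol, were higher in BAT in both comparisons. Aqp7 had a signal of 52.5 in BAT, 39.7 in eWAT and 49.9 in iWAT, and Aqp3 had 49.8, 46.8 and 55.2. Fabp4 and Cd36, which carry fatty acids, and Gk, a glycerol kinase gene, had sums of 111, 354 and 24.9 in BAT, 244, 722 and 76.8 in eWAT, and 158, 551 and 69.4 in iWAT, with 0 calls.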

How the data were processed

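The deposited tables listed regions with their nearest gene, annotation, distance to its start site and a signal value for the input and the 3 TLE3 libraries, per the file headers. That signal, as deposited by the authors, behaves as reads put on a shared total. The submitters' processing notes name STAR, HOMER and mm9, with no role, and the peak calling settings are stated in no label. The deposited peak score was 0 throughout and was not used. The 3 tables were joined by region name, with duplicates dropped. All values (100%) were multiples of a fixed step, within 0.1 read, and this gave the reads behind intervals. At an assumed total of 10000000, the libraries held 3.62 M reads in BAT, 11.3 M in eWAT, 19.0 M in iWAT and 15.4 M in the input.

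Log2 ratios of reads carry exact Clopper-Pearson 95% intervals, computed with Python 3.11.15 and scipy 1.17.1 on all 69599 regions and 13381 genes. They were centred on the median over the strongest 25% of regions, and a count of 0 was set to 3 reads for the 2-fold rule. With 1 library a group no p-value was computed, and the calls compare libraries. The ratio step was tested on simulated data. Alternatives changed the scale, fold, distance, input fold and low-value filter. In full are given each member's strongest and nearest region and those called, and, of the pathway lists, the 3 strongest genes of each and those called, of which 1 is not reported here. Members and lists were chosen with earlier results of these data known. Promoter windows are from RefSeq (GRCm38.p6), where all 6 genes matched by symbol, and were searched after the values were seen.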

Additional observations from a re-analysis of the deposited data

How the results depend on the processing

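No paired analysis was possible because each group has 1 library, and none could be left out. Within 10 kb of start sites the member regions listed were 8 in eWAT and 7 in iWAT, and with regions given to other genes, an alternative chosen after seeing the data, 15 in BAT, 28 in eWAT and 27 in iWAT. At 20 times the input 3 regions passed in BAT, 9 in eWAT and 7 in iWAT. On the authors' scaling, BAT over eWAT gave 9 region and 4 gene-sum calls, BAT over iWAT gave 10 and 2, all lower in BAT, and the called ratios of Mgll at 7.51 kb over eWAT (−0.35), Mgll at 30.1 kb over iWAT (−0.44) and the G0s2 region and sum over iWAT (−0.42 each) changed sign. With all regions as the scale, 6 regions were called for BAT over eWAT. With the regions of all 3 depots as the scale, 2 sums were called in BAT against eWAT and 0 against iWAT. Within 10 kb, 1 sum was called in BAT against eWAT, 3 regions and 2 sums for BAT over iWAT, and 1 region for eWAT over iWAT. For eWAT over iWAT, 8 regions were called by the interval alone and 3 among regions with a mean of at least 30. The 5 region calls of eWAT over iWAT held under each scaling, 3 of them in regions listed in iWAT alone. Scalings of the pathway genes were added after seeing the data. The BAT library was the shallowest, at 2.77 scaled reads per read.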
